A study of Mus musculus with 4 samples.

Results

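The genes described here encode the subunits of the proteasome, with the chaperones that assemble it and the activators that dock onto it. Genes were taken by their symbol, which had to start with Psma, Psmb, Psmc, Psmd or Psme and to be the only symbol of its probe set, and the inducible subunits Psmb8, Psmb9 and Psmb10 were left out. This gave 40 genes of the 12393 that the arrays measured under a single symbol. By role they were 15 subunits of the 20S core, 17 subunits of the 19S regulatory particle, 3 assembly chaperones, 3 activators and 2 genes taken in by their spelling alone. Those 2 are Psmc3ip, a recombination factor, and Psme3ip1, and neither is a subunit.

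The 26S proteasome is the protease that destroys proteins tagged with ubiquitin. Its 20S core is a barrel of stacked rings, in which the outer alpha rings guard the entrance and the inner beta rings hold the catalytic sites. A 19S regulatory particle on the end of the barrel recognises ubiquitin, removes it, unfolds the substrate with a ring of ATPases and feeds it into the core. In most cell types the subunit genes are expressed abundantly and together.

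RNA came from sorted hair follicle stem cells of female CD1/C57BL/6 mice about 60 days old. The cells were taken from back skin by 3 markers, the fluorescent reporter YFP, CD34 and integrin α6. There were 2 arrays from mice with a conditional knockout (cKO) of the T-box factor Tbx1 and 2 arrays from wild type (WT) mice, with 1 array of each genotype in set 1 and 1 in set 2. The treatment text states for all 4 samples that mid-dorsal hair was removed with wax 48 h before harvest, whereas the sample descriptions call the stem cells of set 2 activated and those of set 1 quiescent. The sets are therefore called by number. The driver of the Cre recombinase and the deleted part of Tbx1 were not given in the sources used here. Separate animals are not stated for the arrays of a genotype, so a p-value here rests on the spread among these samples alone, which may be technical.

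Intensities are given as log2 of the deposited values, so a difference of 1 is a doubling. They depend on the probes, and levels of different genes were not compared. Array medians lay between 6.36 and 6.38. Tbx1 itself measured 9.54 and 8.88 on the cKO arrays of sets 1 and 2, and 10.53 and 10.37 on the WT arrays, a difference of -1.24 (SE 0.25, limma adjusted p = 0.172; 0.0424 with the set as a block). All 9 listed bulge markers were above the limit for dim genes (log2 5.40), and 0 of 9 passed the test between genotypes. Their summed intensities on the linear scale were 56086 and 57574 in cKO and 51930 and 48611 in WT. Most of each sum came from Krt15, Krt14 and Krt5. Within both sets, Krt15 and Cd34 read higher in cKO, as 35.8% of all genes did, and Lhx2 lower, as 27.9% did. The 8 endothelial markers summed to 111 and 121 in cKO and to 2402 and 2315 in WT. Of these, 4 had a mean over the arrays below the limit and were not tested. They also read lower in cKO in both sets, with mean differences of -1.10 for Pecam1, -1.56 for Cdh5, -1.95 for Emcn and -0.62 for Tie1. The other 4 passed the test as lower in cKO. Of the immune, melanocyte and fibroblast markers on the arrays, 5 of 6, 2 of 4 and 4 of 6 lay below the limit. Those tested did not pass between genotypes. Immune Cd74 (0.58) and melanocyte Dct (0.24) read higher in cKO within both sets, and fibroblast Col1a2 (-0.14) and Dcn (-0.42) lower. Melanocyte Pmel took opposite signs in the sets. The spiked DapX control, whose 3′ minus 5′ difference reads how far labelling reached, gave 2.95 on the cKO array of set 1 and 1.74 on that of set 2, against 1.82 and 1.76 on the WT arrays. For actin the same difference was 1.68 and 1.15 in cKO and 1.09 and 1.18 in WT. The long noncoding RNA Malat1 measured 9.80 and 10.56 in cKO and 10.03 and 12.35 in WT.

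Between genotypes, most core and regulatory subunits read slightly lower in Tbx1 cKO stem cells, and no single subunit passed the test. The median difference over the 31 core and regulatory subunits tested was -0.20, which is 87.1% of WT, and 27 of the 31 lay below 0. Over all 8031 genes tested the median was 0.03, and 45.7% lay below 0. Over the 2370 genes at least as bright as the dimmest of these subunits the median was -0.0024, and 50.6% lay below 0. Psmc4, an ATPase of the regulatory particle, had the largest negative difference of any subunit at -0.52, and Psmd13, of its lid, the largest positive one at 0.32. Psme1, the alpha subunit of the PA28 activator, read higher in cKO by 0.35.

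**Figure D1:**
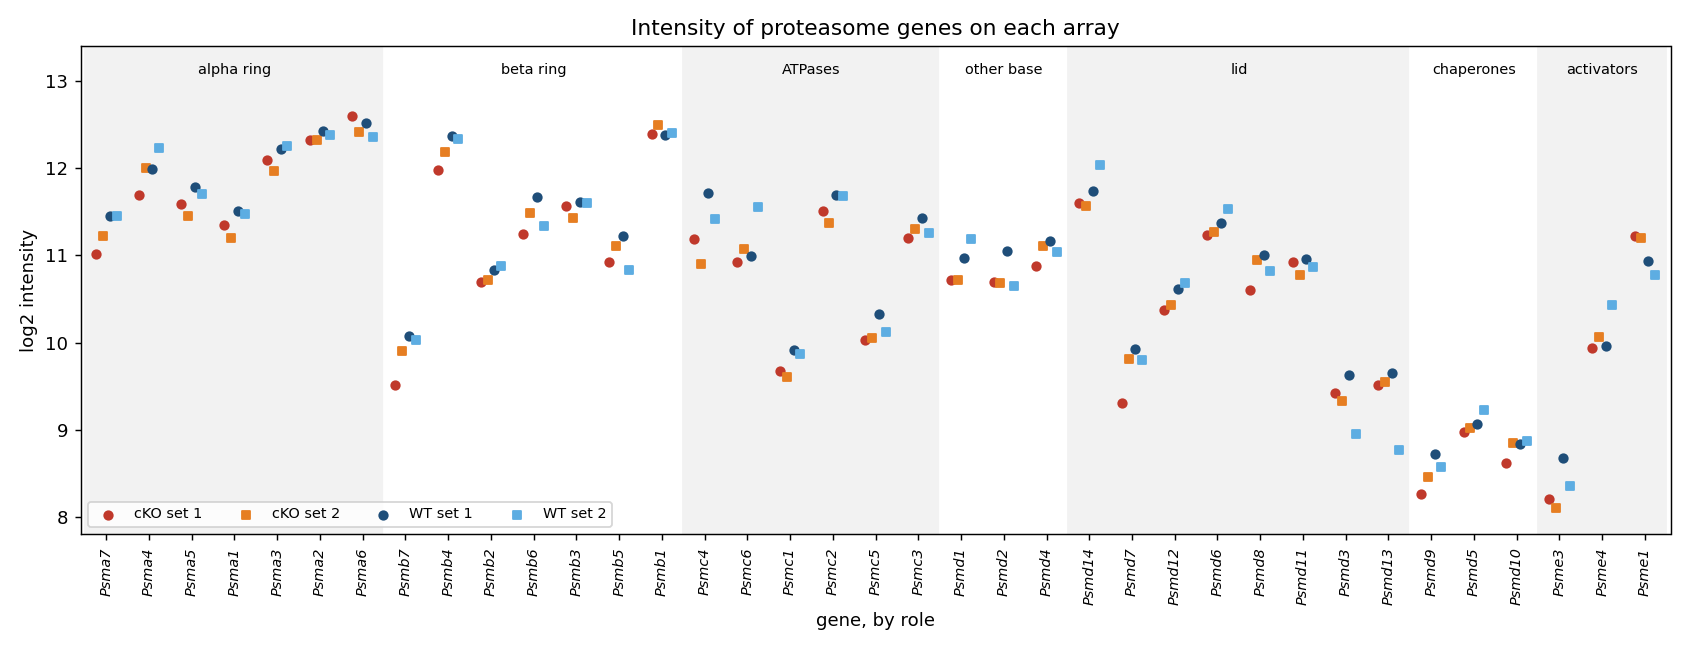
Log2 intensity (vertical axis) of the 37 tested subunits, chaperones and activators, by role along the horizontal axis, with 1 symbol per array and cKO left of WT in each gene. Many genes have both cKO symbols below both WT symbols, as Psma7 and Psmc4 do, and Psme1 has them above.

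Of the 39 members tested, 0 passed limma's test (Benjamini-Hochberg adjusted p under 0.05) between genotypes, where 0.0872% of all genes tested did (7 genes; 0.0623% lower and 0.0249% higher), and 0 passed with the set as a block, where 1.03% of genes did. At an unadjusted p under 0.05, 2 members were lower in cKO, Psmc4 and Psmc3ip, against 5.79% of all genes, and 0 were higher, against 8.37%. With 2 arrays against 2, an exact permutation test of a single gene cannot give a p below 0.333. Counts of direction carry no test and are read beside the same count over all genes. Both cKO arrays lay below both WT arrays in 17 of the 31 core and regulatory subunits (54.8%), against 19.9% of all genes. Both lay above in 0 of the 31, against 26.7% of all genes. In the 20S core the lower count was 9 of 14, and in the 19S particle 8 of 17. Whether endothelial RNA, which was higher in WT, had a part in these counts was not tested. In such bulk samples, fewer cells of a type and less RNA per cell cannot be told apart.

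The counts were larger in set 1 than in set 2, and the difference between the sets was not tested. Within set 1, 29 of the 31 subunits read lower in cKO (93.5%), against 47.5% of all genes, with a median of -0.22 where all genes had 0.02. Within set 2, 20 of 31 did (64.5%), against 44.5%, with a median of -0.14 where all genes had 0.05. In 20 subunits the cKO value was the lower one in both sets (27.9% of all genes), and in 2, Psma6 and Psmb1, it was the higher one in both (35.8%). The remaining 9 took opposite signs in the sets, against 36% of all genes in either direction. In each of the 9 the cKO value was the lower one in set 1 and the higher one in set 2. All 17 subunits of the 19S particle read lower in cKO within set 1, and 10 of the 17 within set 2. The cKO array of set 1 is the one with the larger 3′ to 5′ differences, and the part of this in the set 1 values was not tested. Without that array the median over the 31 subunits was -0.16.

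**Figure D2:**
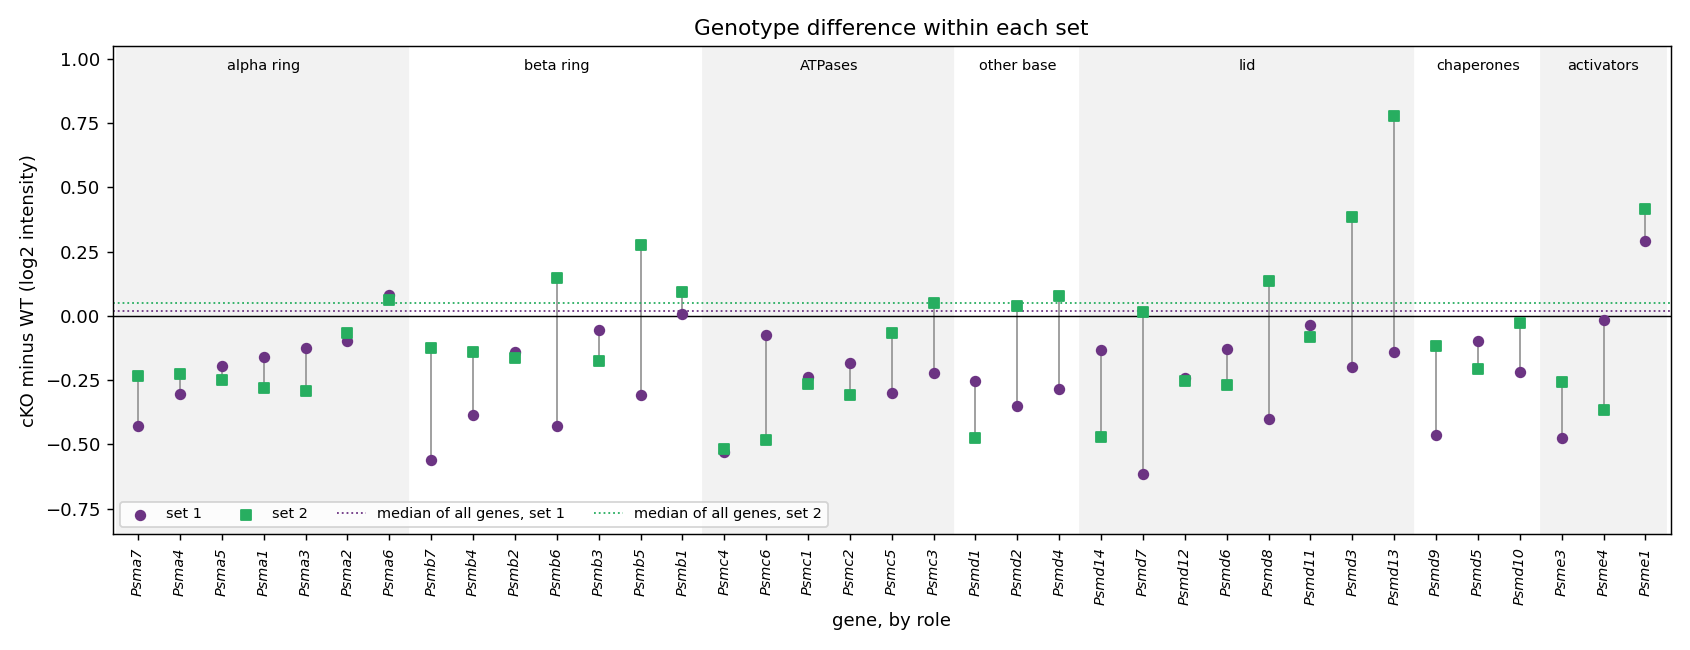
cKO minus WT (log2, vertical axis) within set 1 (circles) and within set 2 (squares) for the same 37 genes, by role along the horizontal axis, with dotted lines at the medians of all genes tested. Circles of 29 of the 31 core and regulatory subunits lie below 0, Psmc4 lies at -0.53 and -0.52, and Psmd13 at -0.14 in set 1 and 0.78 in set 2.

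On the brightest probe set of each gene, differences were small in size. At least 1.5-fold lower in cKO was 1 subunit in set 1 (4.4% of all genes), Psmd7, and 0 in set 2 (7.87%). At least 1.5-fold higher were 0 in set 1 (6.34%) and 1 in set 2 (9.41%), Psmd13. No core or regulatory subunit differed 1.5-fold in the same direction in both sets, against 1.64% of all genes for lower and 3.04% for higher values. Some further probe sets of these subunits above the limit were past 1.5-fold within 1 set, all of them lower in cKO. They gave -0.60 for Psmc4 and -0.66 for Psmd4 in set 1, and -0.72 and -0.73 for Psmc6 in set 2.

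Set against each gene's own mean over the arrays, the subunits were highest on the WT array of set 1 in 20 of 31 cases (64.5%). On the WT array of set 2 they were highest in 9 (29.0%). Over all genes tested these shares were 25.6% and 25.2%. They were lowest on the cKO array of set 1 in 15 cases, on that of set 2 in 10, and on the WT array of set 2 in 5. Those are 48.4%, 32.3% and 16.1%, against 19.1%, 21.5% and 39.6% of all genes. Over the same 2370 bright genes the shares were 22.2%, 23.0% and 32.8%. The median deviation was -0.10 and -0.06 on the cKO arrays of sets 1 and 2, and 0.13 and 0.09 on the WT arrays. Over all genes it was 0.03 and -0.0018 on the cKO arrays, and 0.01 and -0.06 on the WT arrays. The 20S core, with -0.07 and -0.05 in cKO and 0.11 and 0.08 in WT, had the same order of arrays as the 19S particle, with -0.12 and -0.08 in cKO and 0.13 and 0.09 in WT. Within the core the rings differed in order. The alpha ring had -0.04 and -0.06 in cKO and 0.08 and 0.09 in WT, and the beta ring -0.10 and 0.03 in cKO and 0.15 and 0.05 in WT.

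**Figure D3:**
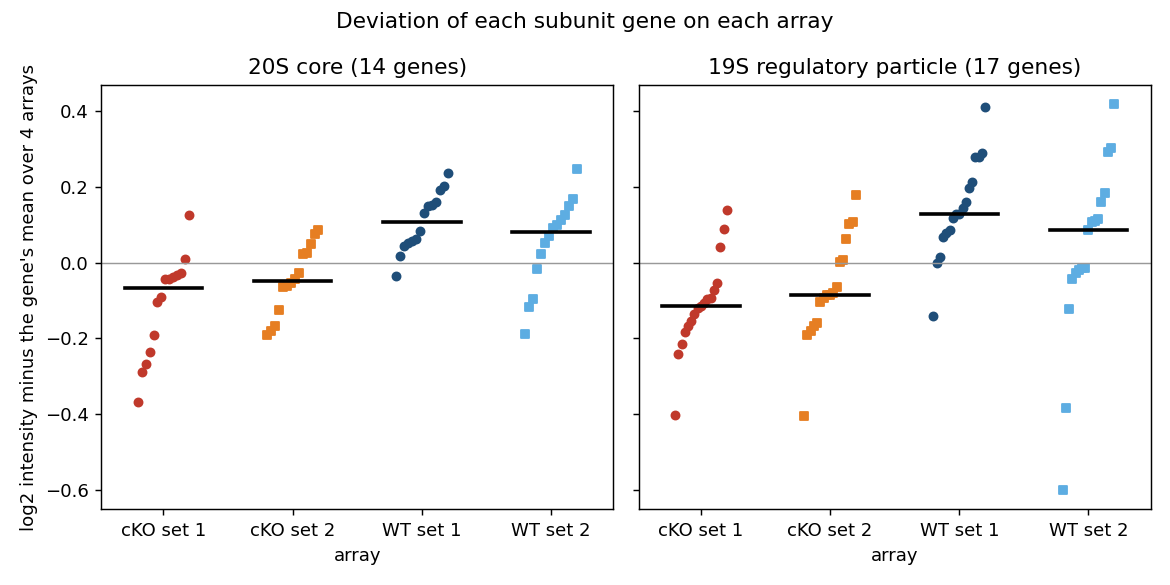
Deviation of each core and regulatory subunit from its own mean over the 4 arrays (log2, vertical axis), 1 point per gene, with bars at the medians, by array along the horizontal axis, cKO left of WT, in 1 panel for the 20S core and 1 for the 19S particle. Medians are below 0 on both cKO arrays and above 0 on both WT arrays, and on each array the points spread across 0.

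Because the subunits are known as genes under shared control, the promoters of some members are shown. Each is the 250 bases before the annotated start in RefSeq's GRCm38.p6 table, 5′ to 3′. Psmc6, Psmd12 and Psmb5 were picked because they hold the antioxidant response core described below, so their matches are no result. Psmb6, the chaperone Psmd9 and the activator Psme4, which also hold it, are not shown. Psmc4 and Psme1 were picked for their differences between genotypes, the largest of either sign among the non-overlapping subunits and activators. Psmc6 and Psmd12 hold 2 of the motifs searched, Psmb5 holds 1, and Psmc4 and Psme1 hold none. A link between motifs and differences was not tested. Capitals mark the motif matches.
Psmc6 (chr14:45329574-45329823, plus strand): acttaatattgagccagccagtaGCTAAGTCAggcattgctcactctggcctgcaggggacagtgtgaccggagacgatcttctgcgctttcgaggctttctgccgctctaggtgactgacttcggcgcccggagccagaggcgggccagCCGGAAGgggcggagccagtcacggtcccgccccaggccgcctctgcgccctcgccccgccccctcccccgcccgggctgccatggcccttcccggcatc
Psmd12 (chr11:107479278-107479527, plus strand): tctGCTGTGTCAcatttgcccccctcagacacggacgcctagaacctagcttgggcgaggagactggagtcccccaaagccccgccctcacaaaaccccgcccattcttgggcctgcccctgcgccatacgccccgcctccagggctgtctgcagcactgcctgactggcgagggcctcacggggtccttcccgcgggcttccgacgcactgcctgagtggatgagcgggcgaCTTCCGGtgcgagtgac
Psmb5 (chr14:54617996-54618245, minus strand): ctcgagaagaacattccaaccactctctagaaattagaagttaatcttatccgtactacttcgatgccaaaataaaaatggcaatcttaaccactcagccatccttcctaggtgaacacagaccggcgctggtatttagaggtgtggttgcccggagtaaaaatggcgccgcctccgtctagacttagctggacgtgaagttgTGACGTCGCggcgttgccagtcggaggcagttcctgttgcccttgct
Psmc4 (chr7:28050093-28050342, minus strand): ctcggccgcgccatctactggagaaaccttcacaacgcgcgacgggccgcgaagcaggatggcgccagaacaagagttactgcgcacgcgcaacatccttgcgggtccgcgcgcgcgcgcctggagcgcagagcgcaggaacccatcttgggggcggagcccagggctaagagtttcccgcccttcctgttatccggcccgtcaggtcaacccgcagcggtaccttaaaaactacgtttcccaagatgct
Psme1 (chr14:55578244-55578493, plus strand): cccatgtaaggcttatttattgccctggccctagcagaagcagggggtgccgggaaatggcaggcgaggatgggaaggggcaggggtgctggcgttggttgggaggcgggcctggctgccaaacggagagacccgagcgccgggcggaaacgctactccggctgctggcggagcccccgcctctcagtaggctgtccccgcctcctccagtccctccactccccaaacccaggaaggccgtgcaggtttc

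Motifs were searched as plain letters on both strands: the antioxidant response core TGACNNNGC, which factors of the Nfe2l1 family are known to bind, the CCAAT box, and the ETS core CCGGAAG. The windows searched also reached past the start, beyond the bases shown. A gene counted if any of its windows held the motif, whereas the share over all windows was counted per window. Windows were found for 33 members, 25 of them core or regulatory subunits. The ETS core stood in 10 of these 25 (40%), against 8.86% of all 32851 windows of the same length. Those 10 were Psma6, Psmc1, Psmc2, Psmc6, Psmd2, Psmd4, Psmd6, Psmd11, Psmd12 and Psmd13. The antioxidant response core stood in 4 (16.0%), Psmb5, Psmb6, Psmc6 and Psmd12, against 12.4% of windows, and the CCAAT box in 10 (40%) against 37.4%. In the sequences above, the antioxidant match lies 227 to 219 bases before the start in Psmc6, 247 to 239 in Psmd12 and 47 to 39 in Psmb5, and the ETS match 100 to 94 bases before it in Psmc6 and 17 to 11 in Psmd12. No matches overlap. A match describes letters in the window and is not a measured binding site.

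The alpha ring forms the gate of the core. Its 7 tested subunits had a median of -0.22 between genotypes (-0.16 in set 1 and -0.23 in set 2). Psma7 had the largest negative difference, with 11.02 and 11.22 on the cKO arrays and 11.45 and 11.46 on the WT arrays, a mean difference of -0.33 (SE 0.16, adjusted p = 0.432). Both its cKO values lay below both WT values, and its further probe set gave -0.31. Psma1 measured 11.35 and 11.19 in cKO and 11.51 and 11.47 in WT (-0.22, adjusted p = 0.577). Psma5 had a like pattern, with 11.59 and 11.45 in cKO and 11.78 and 11.70 in WT (-0.22, adjusted p = 0.572). Neither overlapped between genotypes. Psma3 differed by -0.21 and Psma2 by -0.08, again with no overlap. Psma4 measured 11.69 and 12.00 in cKO and 11.99 and 12.23 in WT, so its groups overlapped, although the cKO value was the lower one within each set (-0.31 and -0.23). Psma6 alone of the ring read higher in cKO, with 12.59 and 12.42 against 12.51 and 12.35 (0.07, SE 0.17, adjusted p = 0.880). Psma8, an alpha subunit known from testis, lay below the limit on all 4 arrays (3.35 to 3.49) and was not tested.

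Of the 7 beta subunits, Psmb5, Psmb6 and Psmb7 carry the catalytic sites. The 7 had a median of -0.14 between genotypes (-0.31 in set 1 and -0.12 in set 2). Psmb7, the trypsin-like site, measured 9.51 and 9.91 in cKO and 10.07 and 10.03 in WT (-0.34, SE 0.19, adjusted p = 0.479), with the cKO array of set 1 the lowest. Psmb5, the chymotrypsin-like site, measured 10.92 and 11.11 in cKO and 11.23 and 10.84 in WT. Psmb6, the caspase-like site, measured 11.24 and 11.48 in cKO and 11.67 and 11.34 in WT. In both genes the cKO value was the lower one in set 1 (-0.31 and -0.43) and the higher one in set 2 (0.28 and 0.15), so that their mean differences of -0.02 and -0.14 had adjusted p-values of 0.981 and 0.783. The structural subunit Psmb4 measured 11.98 and 12.19 in cKO and 12.36 and 12.33 in WT (-0.26, adjusted p = 0.522), with no overlap. Psmb2 and Psmb3 also did not overlap, with smaller differences of -0.15 and -0.11, but a further probe set of Psmb3 gave -0.35. Psmb1 measured 12.39 and 12.49 in cKO and 12.38 and 12.40 in WT (0.05).

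The inducible counterparts of the catalytic subunits, which replace them in the immunoproteasome after interferon, read higher in cKO in both sets. Psmb8, the counterpart of Psmb5, measured 9.72 and 9.70 in cKO and 8.79 and 8.01 in WT (1.31, SE 0.28, adjusted p = 0.186). Psmb9, that of Psmb6, measured 9.63 and 9.45 in cKO and 9.27 and 8.78 in WT (0.51, adjusted p = 0.362). Psmb10, that of Psmb7, measured 8.84 and 8.66 in cKO and 8.24 and 7.62 in WT (0.82, adjusted p = 0.262). In all 3 both cKO arrays lay above both WT arrays, as they did in 26.7% of all genes tested, and none passed the test. The difference between an inducible subunit and its counterpart was not tested.

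**Figure D4:**
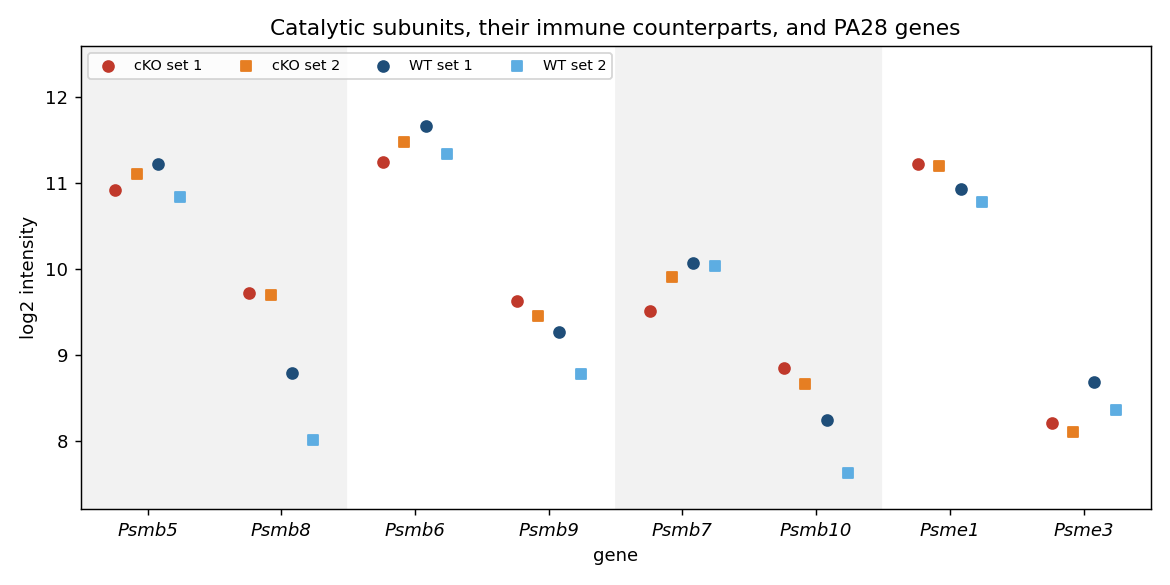
Log2 intensity (vertical axis) of each constitutive catalytic subunit beside its inducible counterpart, and of the activator genes Psme1 and Psme3, on the 4 arrays, cKO left of WT. Psmb8, Psmb9 and Psmb10 have both cKO arrays above both WT arrays, and of the constitutive subunits only Psmb7 has both cKO arrays below both WT arrays.

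The 6 ATPases that form the unfolding ring had a median of -0.25 (-0.23 in set 1 and -0.29 in set 2). Psmc4 measured 11.18 and 10.90 in cKO and 11.71 and 11.41 in WT. Its means were 11.04 ± 0.20 in cKO and 11.56 ± 0.21 in WT (SD, n = 2 each), a level 69.6% of WT, and the difference of -0.52 (SE 0.19) had an unadjusted limma p of 0.0368 and an adjusted p of 0.326, or 0.186 with the set as a block. Its further probe set gave -0.46. Psmc1 measured 9.67 and 9.61 in cKO and 9.91 and 9.87 in WT (-0.25, adjusted p = 0.512), and Psmc2 11.51 and 11.37 in cKO and 11.69 and 11.68 in WT (-0.24, adjusted p = 0.536). Psmc1, Psmc2, Psmc4 and Psmc5 did not overlap between genotypes. Psmc6 measured 10.92 and 11.07 in cKO and 10.99 and 11.55 in WT (-0.28, adjusted p = 0.627). In this gene, whose promoter holds an antioxidant and an ETS match, the WT array of set 2 stood above the other 3, and without it the difference was 0.0029. That is also the array with the highest Malat1, whose part in this value was not tested. Psmc3 took opposite signs in the sets (-0.22 and 0.05).

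Among the other subunits of the base, Psmd1, a large scaffold protein, measured 10.71 and 10.72 in cKO and 10.97 and 11.19 in WT (-0.36, SE 0.17, adjusted p = 0.401), with no overlap. Psmd2, the other scaffold, measured 10.69 and 10.68 in cKO and 11.04 and 10.64 in WT, and Psmd4, a ubiquitin receptor, 10.88 and 11.11 in cKO and 11.17 and 11.03 in WT. The 2 genes overlapped between genotypes, with mean differences of -0.16 and -0.10.

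The lid, which holds the deubiquitinase, had a median of -0.17 (-0.17 in set 1 and -0.04 in set 2). Psmd14, the deubiquitinase itself, measured 11.60 and 11.56 in cKO and 11.73 and 12.04 in WT (-0.30, SE 0.18, adjusted p = 0.492). Psmd7, its partner, measured 9.31 and 9.81 in cKO and 9.92 and 9.80 in WT, and the mean difference of -0.30 (adjusted p = 0.573) came from set 1, where the gap was -0.61, while set 2 gave 0.01. Psmd12 measured 10.37 and 10.43 in cKO and 10.61 and 10.69 in WT (-0.25, adjusted p = 0.521), and Psmd6 11.23 and 11.27 in cKO and 11.36 and 11.53 in WT (-0.20). Psmd6, Psmd12 and Psmd14 did not overlap. Psmd13 measured 9.51 and 9.55 in cKO and 9.65 and 8.77 in WT (0.32, SE 0.30, adjusted p = 0.670), and Psmd3 9.42 and 9.33 in cKO and 9.62 and 8.95 in WT (0.09, adjusted p = 0.898). In these 2 genes the WT array of set 2 read lowest, and without it the differences were -0.12 and -0.24. Psmd8 and Psmd11 differed by -0.13 and -0.06.

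The 3 chaperones that help to build the base all read lower in cKO, in each set. Psmd9 measured 8.26 and 8.45 in cKO and 8.72 and 8.57 in WT (-0.29, SE 0.17, adjusted p = 0.492). Psmd5 and Psmd10 differed by -0.15 and -0.12. Of the activators, Psme1, which with its partner subunit forms a cap induced by interferon, measured 11.22 and 11.20 in cKO and 10.93 and 10.78 in WT. Its means were 11.21 ± 0.02 in cKO and 10.86 ± 0.11 in WT (SD, n = 2 each), a difference of 0.35 (SE 0.16, adjusted p = 0.397). It was the only one of the 39 members tested with both cKO arrays above both WT arrays, as 26.7% of all genes tested had them. Psme3, the nuclear PA28 subunit, measured 8.20 and 8.10 in cKO and 8.68 and 8.35 in WT (-0.37, SE 0.18, adjusted p = 0.432). Psme4, the PA200 activator, measured 9.94 and 10.07 in cKO and 9.96 and 10.43 in WT (-0.19, adjusted p = 0.720).

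Psmc3ip, a recombination factor named for its binding to the ATPase Psmc3, had the largest difference of all 39. It measured 8.30 and 8.28 in cKO and 8.97 and 8.98 in WT, a level 62.0% of WT (-0.69, SE 0.15, adjusted p = 0.196, or 0.112 with the set as a block). Psme3ip1 differed by -0.08.

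Further probe sets of the same genes were compared for sign. Of 21 further probe sets above the limit, in 16 members, 19 gave the same sign as the chosen one between genotypes and 16 read lower in cKO. The 2 of opposite sign belong to Psmd4 and Psmd11. Sizes also differed in some genes. Psmd4 gave -0.35 and 0.07 beside -0.10 for the chosen probe set, and Psmd13 gave 0.13 beside 0.32. Probe sets of 1 gene share its RNA and are not separate support.

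Other genes of the pathway, 27 on the arrays and all tested, had a median near 0 (0.0056). Of these, 0 passed the test between genotypes, and 10 read lower and 10 higher in cKO within both sets, where 27.9% of all genes read lower and 35.8% higher. These shares are also those beside the counts by role. The 5 chaperones of 20S assembly all read lower in each set, at a median of -0.19, and Psmg2 had the widest gap (9.53 and 9.46 in cKO, 9.89 and 9.91 in WT; -0.40, adjusted p = 0.332). Of 8 deubiquitinases, ligases and shuttle factors, 4 read lower and 3 higher. Usp14, which trims ubiquitin on the proteasome, measured 9.21 and 9.16 in cKO and 9.51 and 9.81 in WT (-0.48, adjusted p = 0.325). Of 6 transcription factors of proteasome genes and their processing enzymes, 0 read lower and 4 higher in both sets. Nfe2l1, known to raise proteasome genes when proteolysis is impaired, measured 9.17 and 9.05 in cKO and 8.90 and 8.48 in WT (0.42, adjusted p = 0.412). Maff, a small partner of such factors, differed by 0.91 (adjusted p = 0.357), mostly in set 2 (0.09 and 1.73).

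Between set 2 and set 1, 0 of the 39 members passed limma's test, as did 0 of all 8031 genes (0%), and with genotype as a block 0 members passed, against 0.0125% of genes. At an unadjusted p under 0.05 the count was 0 of 39 members, against 1.61% of genes lower and 1.26% higher. The median over the 31 core and regulatory subunits was -0.03, where all genes had -0.05. Within cKO it was 0.03, where all genes had -0.03, with 18 of 31 subunits above 0 (58.1%, against 43.9% of all genes). Within WT it was -0.04, where all genes had -0.09, with 10 of 31 above 0 (32.3%, against 40% of all genes). Lower values in set 2 within both genotypes were found in 11 subunits (35.8% of all genes), higher values in 8 (19.8%), and opposite signs in 12 (44.2%).

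**Figure D5:**
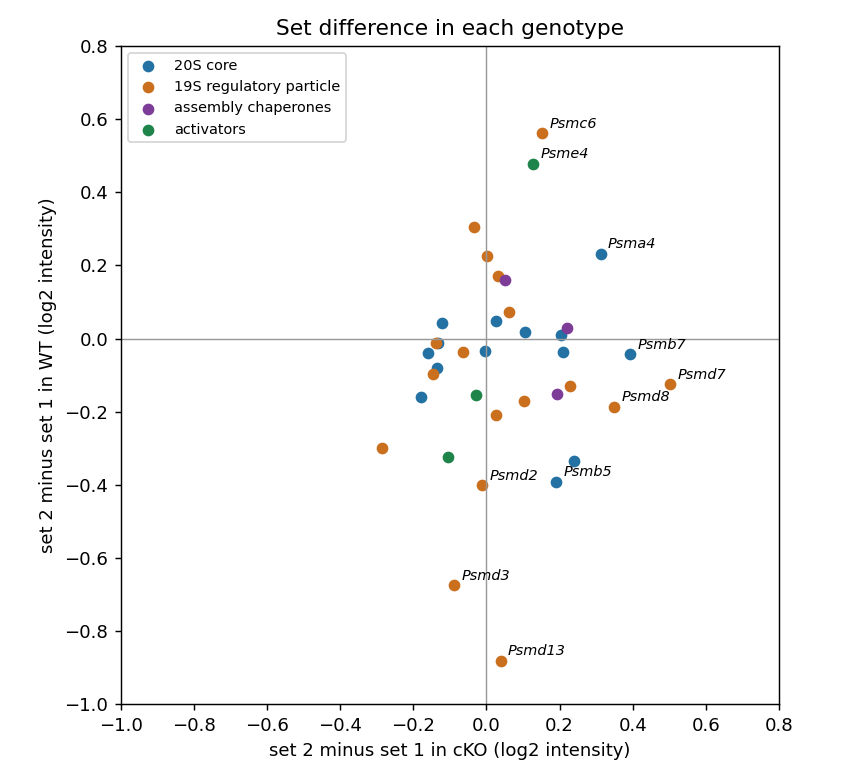
Set 2 minus set 1 on the log2 scale within cKO (horizontal axis) and within WT (vertical axis), 1 point for each of 37 tested genes, coloured by part of the proteasome. Points lie on both sides of 0 on both axes, with Psmd13 and Psmd3 lowest on the WT axis and Psmc6 highest.

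The widest gaps of single subunits between the sets were within WT. Psmd13 differed by 0.04 within cKO and by -0.88 within WT, and Psmd3 by -0.09 and -0.67. These were the 2 subunits at least 1.5-fold lower in set 2 within WT (5.75% of all genes), and 0 were at least 1.5-fold higher (7.1%) there. Within cKO, 0 subunits were at least 1.5-fold lower (2.99% of all genes) or higher (1.98%) on their brightest probe sets. A further probe set of Psmd7, close to the limit for dim genes, gave 0.72 there. Psmc6 had the largest positive mean difference of any subunit at 0.36 (SE 0.23, adjusted p = 0.999), with 0.15 within cKO and 0.56 within WT, and its further probe sets gave 0.71 and 0.72 within WT. Psme4 and Psma4 followed at 0.30 and 0.27. Both set 2 arrays lay above both set 1 arrays in Psma4, Psmb1 and Psmc6 (11.1% of all genes), and below them in Psma6, Psmd2, Psmd3 and Psmd11 (19.5%). The catalytic subunits gave 0.19, 0.24 and 0.39 within cKO for Psmb5, Psmb6 and Psmb7, against -0.39, -0.33 and -0.04 within WT. That difference between genotypes was not tested.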

How the data were processed

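Labelled cRNA was made from 2 µg of total RNA for Affymetrix arrays, according to the labels. The authors deposited 1 table of intensity values for 22690 probe sets on 4 arrays, linear by their range. The submitters' processing notes name RMA without a version. The settings were not stated. It gives no detection call, and its values of dim probe sets are compressed.

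From these, log2 was computed, with no further normalisation. Probe sets with 1 symbol in the platform annotation were kept (20380; 691 had several and 1555 none), and the brightest probe set by mean stood for each gene. A limit at percentile 40 of the probe set means (log2 5.40, linear 42.2) removed dim genes, and Xist and Y-linked genes were also removed, which left 8031. Of 40 members, 19 had several probe sets.

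Groups follow the genotype and set number in the titles. cKO minus WT and set 2 minus set 1 were fitted on all 4 arrays without covariates (lmFit and eBayes of limma 3.58.1, R 4.3.3), adjusted by Benjamini-Hochberg over all genes tested. Differences within 1 set or 1 genotype are 1 array against 1 and carry no test. The number of arrays limits the precision. Arrays with the same set number share a described state, so the set was read as pairing them, and as a block it was an alternative. Same-numbered arrays' deviations correlated with r = 0.192 over 8031 genes.

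Every member could be named. Per role, those with the largest difference of each sign had to be. The members and all lists were chosen with earlier results of these data known. Promoters were matched by symbol to RefSeq's table.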

Additional observations from a re-analysis of the deposited data

Results flagged for a closer look

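For 10 members cKO minus WT took opposite signs in the sets, where 36% of all genes tested did so in either direction. In each of the 10 the cKO value was lower than the WT value in set 1 and higher in set 2. The share of all genes in that direction alone is not given. With 1 array per genotype and set, the difference between the sets was not tested. The change in cKO minus WT between set 2 and set 1 was 0.92 for Psmd13, 0.63 for Psmd7, 0.59 for Psmd3, 0.58 for Psmb5 and 0.57 for Psmb6. It was 0.54 for Psmd8, 0.39 for Psmd2, 0.36 for Psmd4, 0.27 for Psmc3 and 0.23 for Psme3ip1.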

How the results depend on the processing

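No member passed the test in either comparison under any alternative, and the lowest adjusted p of a single member was 0.112 between genotypes and 0.381 between sets. The set as a block changed no member's call. Over all genes, 7 passed between genotypes, against 0 with a filter at percentile 60, 28 with a variance trend and robust fitting, 39 at a threshold of 0.10, 83 with the replicate block, and 2 to 16 with 1 array left out (16 without the cKO array of set 2 and 2 without the WT array of set 2). Between sets 0 passed, and 1 with genotype as a block. The median difference between genotypes stayed below 0 in every alternative. For the core and regulatory subunits it was -0.229 after centring arrays on their medians and -0.212 to -0.158 with 1 array left out. For the 20S core it was -0.152 with no filter on dim genes, -0.210 after centring and -0.200 to -0.142 with 1 array left out. For the 19S particle it was -0.244 with each probe set on its own, -0.229 after centring and -0.233 to -0.170 with 1 array left out. Subunits below 0 between sets numbered 17 of 31, against 27 of 49 with each probe set on its own, and 9 to 26 of 31 with 1 array left out (26 without the cKO array of set 1, 10 without that of set 2 and 9 without the WT array of set 1).

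With 1 array left out, the sign of cKO minus WT turned for 13 members: Psma6 (-0.017 to 0.16), Psmb5 (-0.21 to 0.18), Psmd4 (-0.22 to 0.011), Psmd8 (-0.31 to 0.041), Psmb6 (-0.31 to 0.026), Psmd2 (-0.36 to 0.044), Psme3ip1 (-0.17 to 0.0085), Psmb1 (-0.0025 to 0.10), Psmd11 (-0.13 to 0.013), Psmc6 (-0.56 to 0.0029), Psmd13 (-0.12 to 0.76), Psmd3 (-0.24 to 0.43) and Psme4 (-0.43 to 0.048). Between sets it turned for 7 of the members followed: Psmb7 (-0.10 to 0.45), Psmd1 (-0.12 to 0.35), Psmd7 (-0.12 to 0.50), Psmb5 (-0.25 to 0.052), Psmc3ip (-0.36 to 0.34), Psme3 (-0.45 to 0.024) and Psme3ip1 (-0.16 to 0.034). A second quantile normalisation gave 0.00044 for Psmb5 between genotypes. Averaging all probe sets of a gene gave 0.012 for Psma6 between sets, and centring gave 0.035 for Psmc3ip there. The cause was not tested.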
